A study of Mus musculus with 4 samples.

Results

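E-cadherin, Epcam and 8 genes that regulate or accompany epithelial character were followed in mouse embryonic fibroblasts (MEFs) during reprogramming to induced hepatocytes. The 10 genes were taken by symbol from the 55397 genes of the table, and each symbol matched 1 row. Cdh1 encodes E-cadherin and Epcam the epithelial cell adhesion molecule. St14 encodes matriptase, a serine protease of the epithelial surface, and Spint1 encodes its inhibitor HAI-1. Esrp1 and Esrp2 encode epithelial splicing regulators, and Grhl2, Ovol1, Elf3 and Ehf encode transcription factors of epithelia.

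The cells were primary MEFs of stage E13.5 from Prox1(fl/fl) C57BL/6J mice, in which both Prox1 alleles can be deleted by Cre. Per the methods, a MEF line came from the limbs of several embryos, so a line pools animals. All cultures received the 4in1 lentivirus, which encodes the hepatocyte reprogramming factors, and were collected at day 14. The Prox1 KO group (n = 2) additionally received a lentivirus with Cre fused to GFP, and the control group (n = 2) received non-functional delta Cre fused to GFP. The groups therefore also differed in active Cre, so its effect and that of Prox1 deletion cannot be told apart here. The comparison asks how epithelial genes depended on Prox1 while hepatocyte fate was being induced.

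Epithelial cells hold together through E-cadherin, whose tail binds catenins and through them the actin cytoskeleton. Epcam is a surface glycoprotein of epithelia that binds claudin 7. Fibroblasts lack both and express N-cadherin, and the passage between these states is known as the mesenchymal-epithelial transition. Grainyhead-like and OVO-like factors, ETS factors such as Elf3 and Ehf, and the ESRP proteins favour the epithelial state, whereas SNAI and ZEB factors bind E-boxes and repress Cdh1. Hepatocytes are epithelial cells that carry E-cadherin. In the adult liver Epcam marks bile duct cells and progenitors more than hepatocytes.

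The libraries held 42469031 to 48524008 reads on genes. Prox1 (ENSMUSG00000010175), the targeted gene, had 72.7 and 61.6 normalized counts in the Prox1 KO libraries of replicates 1 and 2, against 60.6 and 25.5 in the controls. Its level exceeded that of the paired control in both replicates (log2 change 0.75 with a standard error, SE, of 0.27, limma adjusted p = 0.0936), which goes against the label. "Prox1 KO libraries" below means the libraries labelled so, and every direction rests on that label. A count of the whole gene includes reads from exons that Cre leaves in place. An antisense gene, Prox1os, overlaps 133 of the 8390 exonic bases of Prox1. The part of either in these counts was not tested. Values are normalized counts, meaning reads divided by the size factor of the library. A log2 change is the Prox1 KO minus the control mean of log2(normalized counts + 1), and the added 1 shrinks it for scarce genes. They were tested with limma over 15809 genes with a mean of at least 10, with the replicate number as a block. An exact permutation test of 2 against 2 libraries cannot give a two-sided p below 0.333. The study describes its replicates as independent biological ones in general, but the labels do not give the culture or MEF line of each library. The p-values therefore hold for these libraries only. With the block they measure how far the Prox1 KO minus control differences of the 2 replicate pairs agree, with a variance moderated over all tested genes. They do not measure the spread between the 2 libraries of a group.

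Epcam and Spint1, which both fell, have promoter sequences in the RefSeq table (GRCm38.p6), and the 250 bases before each start are shown because their letters hold motifs of the factors named above. Capitals mark CAGGTG on either strand, the E-box of SNAI and ZEB factors, and ACCGGT, a palindrome at the centre of the grainyhead motif AACCGGTT. The Epcam window is chr17:87635729-87635978 on the plus strand, and that of Spint1 chr2:119237110-119237359 on the plus strand.
Epcam: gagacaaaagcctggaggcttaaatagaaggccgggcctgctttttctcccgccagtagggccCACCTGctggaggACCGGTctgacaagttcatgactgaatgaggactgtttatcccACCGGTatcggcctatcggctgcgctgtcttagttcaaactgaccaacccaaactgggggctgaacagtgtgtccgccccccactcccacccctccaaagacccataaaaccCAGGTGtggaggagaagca
Spint1: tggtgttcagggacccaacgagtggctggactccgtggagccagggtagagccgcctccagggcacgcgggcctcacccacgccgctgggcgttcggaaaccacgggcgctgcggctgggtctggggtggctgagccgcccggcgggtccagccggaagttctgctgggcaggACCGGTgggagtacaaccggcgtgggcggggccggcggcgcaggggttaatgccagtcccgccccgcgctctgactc
The Epcam window held CAGGTG at 2 places, 187 and 19 bases before the start, and ACCGGT at 2 places, 174 and 131 bases before it. The Spint1 window held ACCGGT once, 77 bases before the start, and no CAGGTG. Elf3, the third member in that table, had CAGGTG once, 140 bases before its start. None of these 3 windows held the whole AACCGGTT. Over all 32851 promoters of the same length, 17.2% held CAGGTG, 1.86% ACCGGT and 0.116% AACCGGTT. These matches are a description of the letters, and binding was not measured.

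Of the 10 genes, 6 reached a mean of 10 normalized counts and were tested. Cdh1, Epcam, Spint1 and Ehf fell in the Prox1 KO libraries, and 0 rose. Ehf passed the filter on low values through its controls alone and its groups overlapped. Among all tested genes 11.4% were called, 6.29% as lower and 5.09% as higher. The 10 genes were chosen with earlier results of these data known, so this is a description and does not measure enrichment. The remaining 4 genes, Grhl2, Esrp1, Elf3 and Ovol1, had means of 0 to 4.28 normalized counts and were not tested. The 6 tested genes had a median log2 change of -1.25, which includes Ehf and was -1.12 without it, beside -0.0022 for all tested genes. Without the replicate block, 0 of them passed in limma and 3 had an unadjusted p under 0.05. Leaving out any 1 of the 4 libraries, also without the block, left Cdh1, Epcam, Spint1, Ehf and St14 lower each time. For Cdh1, Epcam, Spint1 and St14 this was fixed in advance, because both Prox1 KO libraries lay below both controls. In these fits the log2 change of Ehf ranged from -3.1 without Prox1 KO replicate 2 to -0.35 without Prox1 KO replicate 1.

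**Figure D1:**
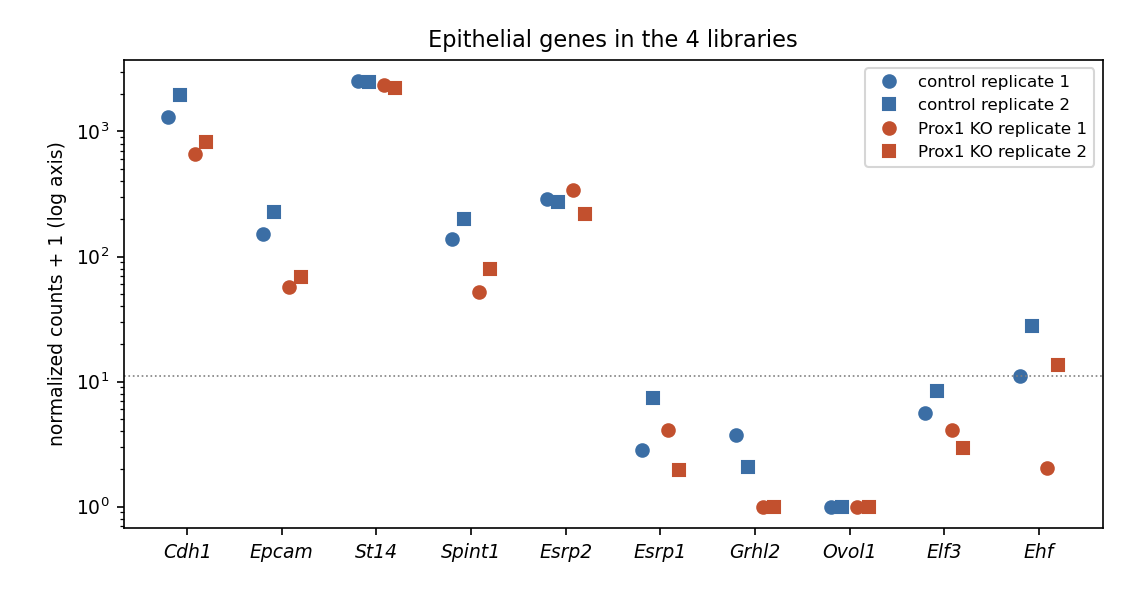
Normalized counts + 1 of the 10 genes (log axis) in the 2 control and 2 Prox1 KO libraries, 1 point per library, with the shape giving the replicate and the dotted line marking the mean of 10 needed for testing. Both Prox1 KO points lie below both control points for Cdh1, Epcam, Spint1 and St14, while Esrp2 and Ehf overlap and 4 genes stay near 0. Of these 4, Grhl2 and Elf3 are separated in the same way, at a few reads per library. With 2 libraries per group, full separation in either direction has a chance probability of 0.333 if the libraries are independent and alike, which was not tested. Its share over all tested genes was not counted.

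Cdh1 (ENSMUSG00000000303), on chromosome 8 from 106603351 to 106670246, had 656 and 826 normalized counts in the Prox1 KO libraries of replicates 1 and 2, and 1294 and 1974 in the controls. Both Prox1 KO libraries lay below both controls, and the mean of 741 ± 120 (SD, n = 2) was 45.3% of the control mean of 1634 ± 480 (SD, n = 2). The log2 difference was -0.98 in pair 1 and -1.26 in pair 2, for a log2 change of -1.12 (SE 0.07, limma adjusted p = 2.36e-07).

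Epcam (ENSMUSG00000045394), on chromosome 17 from 87635979 to 87651129, had 56.1 and 67.4 normalized counts in the Prox1 KO libraries and 151 and 227 in the controls. The highest Prox1 KO library was below the lowest control, and the mean of 61.8 ± 8.01 (SD, n = 2) was 32.7% of the control mean of 189 ± 53.2 (SD, n = 2). Its log2 change was -1.58 (SE 0.18, limma adjusted p = 3.63e-05), the 36th lowest of the 15809 genes. The fall was larger than that of Cdh1 in both pairs. The level of Epcam per kilobase of exon was 24.4% and 23.9% of that of Cdh1 in the controls of replicates 1 and 2, and 17.8% and 17.0% in the Prox1 KO libraries. As a ratio within a library, this does not depend on the size factors.

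Of matriptase and its inhibitor, the inhibitor fell and the protease missed the threshold. St14 (ENSMUSG00000031995, chromosome 9, 31089402 to 31131853) had 2353 and 2243 normalized counts in the Prox1 KO libraries and 2520 and 2490 in the controls. The groups did not overlap, but the log2 change of -0.12 (95% interval -0.23 to -0.02) missed the threshold (limma adjusted p = 0.124). Spint1 (ENSMUSG00000027315, chromosome 2, 119237362 to 119249527) had 50.9 and 78.2 normalized counts in the Prox1 KO libraries and 137 and 200 in the controls. The means were 64.6 ± 19.3 and 168 ± 44.8 (SD, n = 2 each). Spint1 fell in both pairs, by 1.41 and 1.34 on the log2 scale, with a log2 change of -1.38 (SE 0.18, limma adjusted p = 0.000121). Per kilobase of exon, St14 exceeded Spint1 by a ratio of 6.67 and 4.51 in the controls of replicates 1 and 2, and of 16.7 and 10.4 in the Prox1 KO libraries. The ratio was 2.51 times the control value in pair 1 and 2.31 times in pair 2. This change does not depend on the exon lengths used, whereas the ratio itself does. The difference between the 2 genes was not tested.

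**Figure D2:**
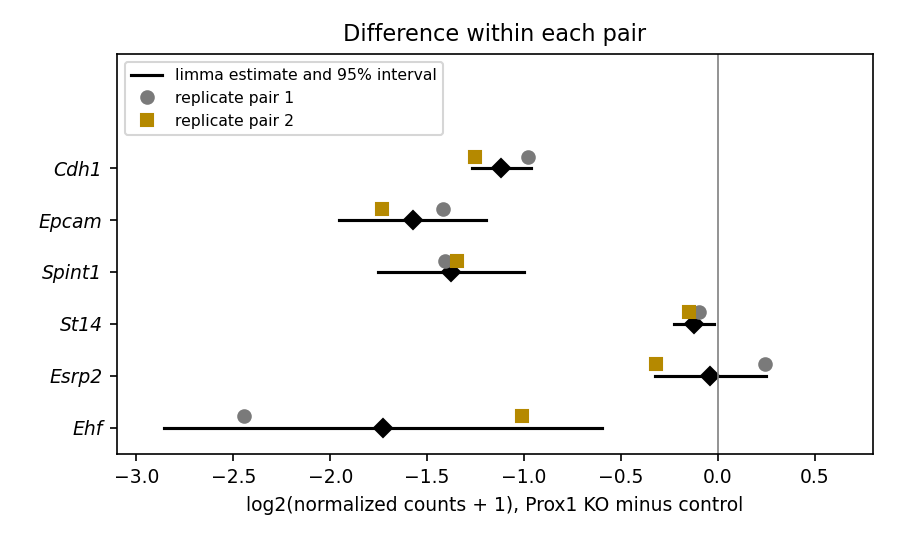
Difference in log2(normalized counts + 1), Prox1 KO minus control, for the 6 tested genes (rows), with the value of each replicate pair (grey circle, ochre square) above the limma estimate (diamond) and its 95% interval (line). Cdh1, Epcam and Spint1 lie between -0.98 and -1.73 in both pairs, St14 is close to 0, and the pairs of Esrp2 have opposite signs.

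Neither splicing regulator was called. Esrp2 (ENSMUSG00000084128, chromosome 8, 106130319 to 106136974) had 338 and 218 normalized counts in the Prox1 KO libraries and 286 and 273 in the controls. Its groups overlapped, it was higher by 0.24 in pair 1 and lower by -0.32 in pair 2, and the log2 change was -0.04 (95% interval -0.33 to 0.25, limma adjusted p = 0.898). This interval lies apart from that of Cdh1, -1.27 to -0.97. Exons of Esrp2 overlap antisense exons of Nfatc3 over 219 bases, and 4.13% of its 100-base windows recur in transcripts of other genes. Esrp1, its paralogue, had 3 and 1 reads in the Prox1 KO libraries and 2 and 6 in the controls, too few to compare. Its read ratio was 0.511 with a 95% interval of 0.113 to 1.91. Counts per gene do not show which exons were used, so splicing by ESRP proteins was not measured.

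The epithelial transcription factors were scarce in every library. Grhl2 had 0 reads in both Prox1 KO libraries and 3 and 1 in the controls, and a floor of 3 reads per library was used for a count of 0, so no fold is given. Ovol1 had 0 reads in all 4 libraries. Elf3 had 3 and 2 reads in the Prox1 KO libraries and 5 and 7 in the controls, for a ratio of 0.426 with a 95% interval of 0.118 to 1.30. A difference in Elf3 was not detectable at this depth.

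Ehf (ENSMUSG00000012350, chromosome 2, 103263433 to 103303278) had 1 and 13 reads in the Prox1 KO libraries and 11 and 25 in the controls. The Prox1 KO library of replicate 2 lay above the control of replicate 1, so the groups overlapped. Its log2 change was -1.73 (SE 0.53, limma adjusted p = 0.0476), from -2.44 in pair 1 and -1.01 in pair 2. It passed the filter through its controls, with 18.4 normalized counts against 6.87, and its call is the least stable of the 4. edgeR gave an adjusted p of 0.0852 and DESeq2 no adjusted p. edgeR called 6.48% of genes as lower and DESeq2 2.07%, and with the block both called Cdh1, Epcam and Spint1 as lower.

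Levels per kilobase of exon order the 10 genes, but the order depends on the length used, here the union of all annotated exons. In the controls Cdh1 stood at 283 and 431 normalized counts per kilobase, around St14 at 330 and 326. The union is 7637 bases for St14, whose longest transcript has 3550, and 4574 for Cdh1, whose longest has 4430. These 2 genes are therefore not ranked in the controls. Epcam followed at 69.0 and 103, above Esrp2 at 65.8 and 62.8, with Spint1 at 49.4 and 72.3 overlapping Esrp2. Ehf, Elf3, Esrp1 and Grhl2 had at most 4.77 normalized counts per kilobase. In the Prox1 KO libraries St14 led with 308 and 294, then Cdh1 with 143 and 181. Esrp2, with 77.8 and 50.2, was then above Epcam, with 25.6 and 30.7, and Spint1, with 18.4 and 28.3. Esrp2 was thus above Epcam in both Prox1 KO libraries and below it in both controls, though close to it in replicate 1. Longest transcripts are 3536 bases for Esrp2 and 2040 for Epcam, against 4340 and 2195 exonic bases. The order in the control of replicate 1 therefore depends on the length used.

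Cdh1, Epcam and Spint1 also differed between replicates in the same direction within each group. The library of replicate 2 exceeded that of replicate 1 by 0.61, 0.58 and 0.55 on the log2 scale in the controls, and by 0.33, 0.26 and 0.61 in the Prox1 KO group. St14 differed between replicates by -0.02 in the controls and -0.07 in the Prox1 KO group. The genes closest to Cdh1 over the 4 libraries, by Euclidean distance of centred log2 values among 11429 protein-coding genes outside the lists with a mean of at least 100, were Dsg2 (distance 0.14), Chn2 (0.15), Ces2b (0.15), Cyp2s1 (0.19) and Eps8l3 (0.20). Dsg2 encodes a desmosomal cadherin, Chn2 a Rac regulator, Ces2b a carboxylesterase and Cyp2s1 a cytochrome P450. Spint1 lay at 0.33 and Epcam at 0.46, St14 at 1.12, Esrp2 at 1.36 and Ehf, though called lower, farthest at 1.88. These distances describe likeness over libraries that include the compared groups.

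Around these genes, 8 lists of related genes held 87 genes, of which 71 were tested. Of these, 17 (23.9%) were lower and 11 (15.5%) higher in the Prox1 KO libraries, beside 6.29% and 5.09% of all tested genes, and the median log2 change was -0.04. The lists were chosen with earlier results of these data known, so these shares are a description and do not measure enrichment. All 28 called genes kept their direction with both other pseudocounts and with quantile normalization, as well as in edgeR and DESeq2 with the block. In this balanced design limma gives the same log2 change with or without the block, so that setting does not test direction. DESeq2 with the block called 13 of the 28, and edgeR all 28. Where DESeq2 lost or could not give the call of a related gene named below, this is said beside it. Cldn4 and Cdh17 stand also in a list of cell type markers below. Calls of the other cell type markers are those of limma and were not compared with DESeq2.

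**Figure D3:**
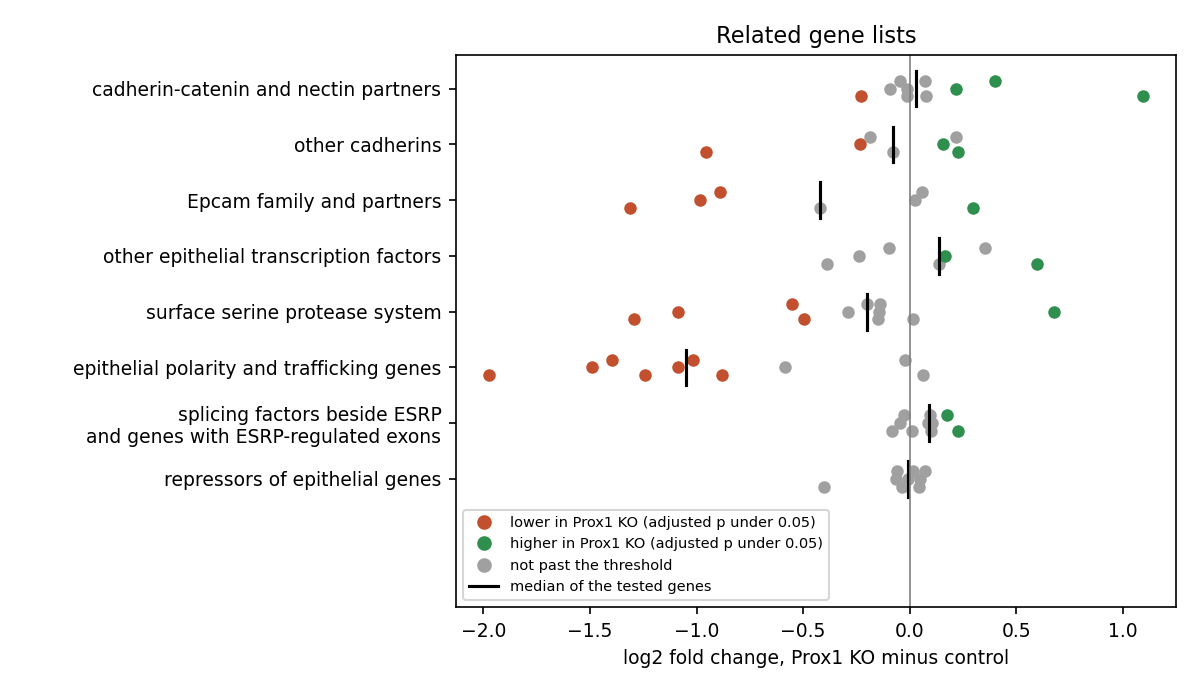
Log2 fold change (Prox1 KO minus control) of the 71 tested related genes, 1 point per gene in 8 lists, coloured by whether they passed an adjusted p of 0.05 in limma, with the list median as a black line. Points of the polarity and trafficking list lie mostly near or below -0.88 with a median of -1.05, while the repressors of epithelial genes lie near 0 with none past the threshold.

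Junction partners of E-cadherin went in both directions. Of 10 catenin, nectin and linker genes, 3 were higher, 1 lower and 6 did not pass, with a median of 0.03. The catenin Ctnnb1 had 30448 and 29966 normalized counts in the Prox1 KO libraries and 32492 and 31987 in the controls (log2 change -0.09, limma adjusted p = 0.156), and 16.0% of its windows recur in other genes. Ctnna1 had a log2 change of -0.01 (limma adjusted p = 0.909). Jup, which encodes plakoglobin, rose by 0.22 (limma adjusted p = 0.0181, DESeq2 adjusted p = 0.755). The nectins, adhesion molecules of the same junction, went both ways. Nectin4 had 79.0 and 69.4 normalized counts in the Prox1 KO libraries and 40.4 and 28.7 in the controls, a log2 change of 1.10 (SE 0.24, limma adjusted p = 0.00837, no adjusted p from DESeq2). Nectin1 rose by 0.40 (limma adjusted p = 2.00e-05), and Nectin2 fell by 0.23 (limma adjusted p = 0.00656, DESeq2 adjusted p = 0.145).

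Among 7 tested cadherins other than Cdh1, 2 were higher and 2 lower. Cdh17, the liver-intestine cadherin, had 406 and 563 normalized counts in the Prox1 KO libraries and 849 and 1018 in the controls, a log2 change of -0.96 (SE 0.08, limma adjusted p = 2.52e-06). The mesenchymal cadherin Cdh11 fell by 0.23 (limma adjusted p = 0.00108). Cdh13, a cadherin anchored by a lipid, rose by 0.23 (limma adjusted p = 0.0021). Cdh2, which encodes N-cadherin, had 11131 and 9257 normalized counts in the Prox1 KO libraries and 9899 and 8385 in the controls, a log2 change of 0.16 (limma adjusted p = 0.0177, 0.0557 after quantile normalization, DESeq2 adjusted p = 0.139). Per kilobase of exon, Cdh1 stood at 23.1% and 41.5% of Cdh2 in the controls of replicates 1 and 2, and at 10.4% and 15.7% in the Prox1 KO libraries. N-cadherin RNA thus exceeded E-cadherin RNA in all 4 libraries.

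**Figure D4:**
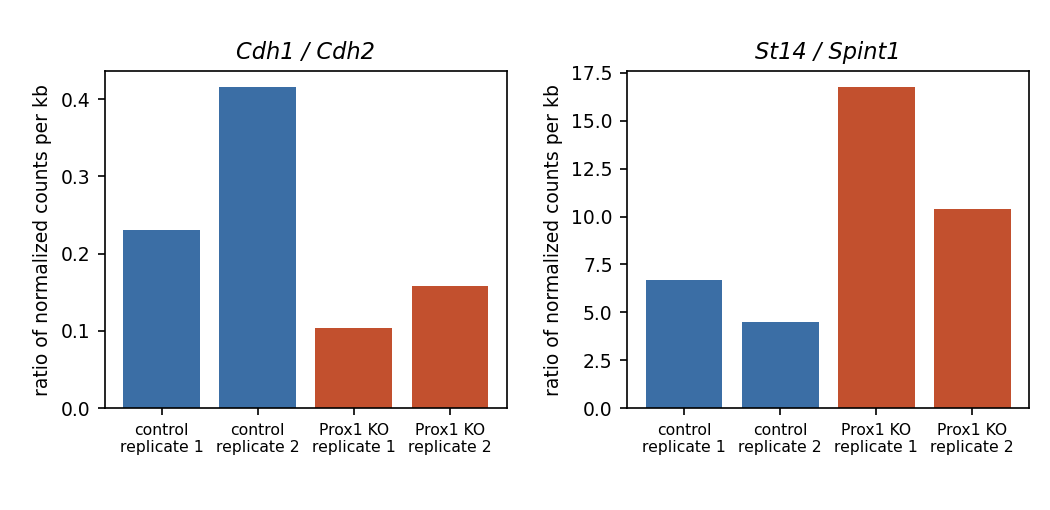
Ratios of normalized counts per kilobase of exon within each library (bars, 1 per library, axes from 0), Cdh1 to Cdh2 on the left and St14 to Spint1 on the right. Both Prox1 KO bars are below both control bars for Cdh1 to Cdh2 (at most 0.157 against at least 0.231) and above them for St14 to Spint1 (at least 10.4 against at most 6.67).

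Of the 8 genes related to Epcam, 7 were tested, 3 were lower, 1 higher, and the median was -0.42. Cldn7, whose product binds Epcam, had 48.8 and 69.4 normalized counts in the Prox1 KO libraries and 132 and 162 in the controls, a log2 change of -1.31 (SE 0.19, limma adjusted p = 0.000308). Cldn4, a further claudin, fell by 0.98 (limma adjusted p = 8.26e-07), and the tetraspanin Tspan8 by 0.89 (limma adjusted p = 2.66e-06). Cd44, the hyaluronan receptor, rose by 0.30 (limma adjusted p = 0.000127).

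In the serine protease list, 4 of 11 tested genes were lower, 1 higher and 6 did not pass, with a median of -0.20. Spint2, which encodes the inhibitor HAI-2, had 1838 and 1906 normalized counts in the Prox1 KO libraries and 2547 and 2965 in the controls, a log2 change of -0.55 (SE 0.05, limma adjusted p = 7.57e-06). The second inhibitor thus fell as Spint1 did, but by less in log2 terms. The protease Tmprss2 fell by 1.09 (limma adjusted p = 9.16e-05). Hgfac, the activator of hepatocyte growth factor, fell by 0.50 (limma adjusted p = 0.025, 0.0671 after quantile normalization, DESeq2 adjusted p = 0.44). Prss22 fell by 1.29 (limma adjusted p = 0.0382, 0.0581 after quantile normalization, no adjusted p from DESeq2) at a level of 9.77 to 29.4 normalized counts. The 1 higher gene was Mst1, at 0.68 (limma adjusted p = 0.0417, DESeq2 adjusted p = 0.628), named after its value was seen. Prss8, which encodes prostasin, had 20.8 and 54.7 normalized counts in the Prox1 KO libraries, and both controls lay between these values.

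Of 13 genes of epithelial polarity and trafficking, 10 were tested, of which 7 were lower and 0 higher, with a median of -1.05. DESeq2 with the block called 3 of this list. It gave no adjusted p for the scarce genes Marveld2, Marveld3 and Lad1, which limma called lower. Lad1 passed the filter through its controls, with a mean of 41.6 normalized counts against 9.59 in the Prox1 KO libraries. Lsr, which encodes a receptor of tricellular junctions, had 495 and 639 normalized counts in the Prox1 KO libraries and 1131 and 1569 in the controls. Its log2 change was -1.24 (SE 0.07, limma adjusted p = 9.52e-08), although 24.8% of its windows recur in other genes, where an antisense gene overlaps it. Cgn, which encodes cingulin of tight junctions, fell by 0.88 (limma adjusted p = 4.03e-06), with 11.9% of windows shared. Myo5b, a motor of apical recycling, fell by 1.09 (limma adjusted p = 0.00028). Crb3, an apical polarity protein, fell by 1.02 (limma adjusted p = 0.00257, DESeq2 adjusted p = 0.111). The polarity gene Llgl2 had a log2 change of -0.02 (limma adjusted p = 0.89).

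Among other epithelial transcription factors, 7 of 15 were tested, of which 2 were higher and 0 lower. Grhl3, a paralogue of Grhl2, had 404 and 282 normalized counts in the Prox1 KO libraries and 262 and 189 in the controls. Both Prox1 KO libraries lay above both controls, with a log2 change of 0.60 (SE 0.11, limma adjusted p = 0.00276, DESeq2 adjusted p = 0.15). Klf4 rose by 0.16 (limma adjusted p = 0.0155, DESeq2 adjusted p = 0.158). Grhl1 had 13.8 to 37.4 normalized counts and a log2 change of 0.35 (limma adjusted p = 0.609). Ovol2 had 0 reads in both Prox1 KO libraries, and Ovol3, Elf5 and Cdx2 were at 0 in all 4 libraries. Of the 3 grainyhead genes, Grhl3 was therefore the highest in normalized counts per library.

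Of 9 repressors of epithelial genes, limma called 0 and gave 0 an unadjusted p under 0.05, and edgeR and DESeq2 with the block also called 0. Their median was -0.01. Zeb1 had 8191 and 7842 normalized counts in the Prox1 KO libraries and 8551 and 7913 in the controls, and its log2 change was -0.04 (limma adjusted p = 0.631). Snai1 had a log2 change of 0.05 (limma adjusted p = 0.64). Of 10 genes that are splicing factors or have ESRP-regulated exons, 2 were higher, the actin regulator Enah at 0.23 (limma adjusted p = 0.00345, DESeq2 adjusted p = 0.0684) and the splicing factor Mbnl1 at 0.18 (limma adjusted p = 0.00845, DESeq2 adjusted p = 0.0734). The median of that list was 0.09.

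Markers of several cell types were also called in limma. Of 8 hepatocyte markers, 6 were lower and 0 higher, and their summed level was 19057 and 20835 normalized counts in the Prox1 KO libraries against 26232 and 27731 in the controls. Of 8 fibroblast markers, 4 were lower (Col3a1, Dcn, Lum and Postn), with sums of 787525 and 992812 against 911604 and 1089209, so the sums overlapped. Of 8 cholangiocyte markers, 7 were tested and 2 were lower, Krt19 at -0.43 and Cldn4, with overlapping sums of 87131 and 112229 against 90879 and 128958 that came mostly from Spp1. Of 8 intestinal markers, 4 were tested and 2 were lower, Vil1 at -0.82 and Cdh17, with sums of 1552 and 1977 against 2697 and 3432, and Cdx2 was at 0. Without Vil1, 41.7% of their summed level remained. Of 8 keratinocyte markers, 3 were tested and Ivl was higher at 0.41, while Krt5 and Krt14 had at most 7.27 normalized counts. The sums of 1767 and 1300 against 1327 and 1090 overlapped and came mostly from Ivl, with 15.6% left without it. Of 5 endothelial markers, 3 were tested and 1 was higher, Kdr at 0.67, while Cdh5 and Pecam1 had at most 12.5 normalized counts. The sums of 1067 and 949 against 751 and 646 came mostly from Kdr, with 18.5% left without it. Of 5 haematopoietic markers, 3 were tested and 1 was lower, Cd14 at -0.72, and Adgre1 was at 0. The sums were 488 and 576 against 629 and 654, with 49.3% of the level left without Cd14. The part of these cell types in the results on Cdh1, Epcam and Spint1 was not tested. In bulk RNA, fewer cells of a type and less RNA per cell cannot be told apart.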

How the data were processed

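The RNA-seq libraries were 2 of Prox1 KO cells and 2 of control cells, and the sample titles gave each library its group and replicate number. The authors mapped the paired-end reads to mm10 with STAR and deposited a signal per gene, read counts divided by the DESeq2 size factor of each library. The counting tool, its strand setting and the annotation are not given in the sources used here. All positive values (100%) were whole multiples of the smallest value in their library within a tolerance of 0.001, so read counts were recovered. The authors' table of their own comparison (fold changes, p-values) was not used.

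The filter kept 15809 of 55397 genes, those averaging 10 or more over the 4 libraries. limma 3.58.1 (R 4.3.3) was then fitted to log2 of the normalized count plus 1, using the trend option, the replicate number as a block and Benjamini-Hochberg adjustment over all genes tested at a threshold of 0.05. The block follows the methods, in which the primary MEF line was a covariate. Whether a replicate number marks a MEF line is not stated. Deviations of same-numbered libraries from their group means had a Pearson correlation of 0.402 across tested genes, which are not independent replicates. By chi-square tests of their reads, the Prox1 KO libraries differed from each other in 32.4% of genes and the controls in 33.2%, so no library was counted as a duplicate. On counts simulated for this comparison over 15809 genes, limma with the block recovered 87.5% of 200 changed genes, with 6 false calls. The changed genes were set 1 log2 unit up or down, with the same dispersion for all genes and a replicate effect of the kind the block assumes. Smaller changes, as many called here are, were not simulated. These figures hold for those counts only, and the share of true or false calls among the reported genes was not tested.

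The alternatives were no block, pseudocounts of 0.1 and 10, other filters, quantile normalization, the quasi-likelihood test of edgeR 4.0.16 and the Wald test of DESeq2 1.42.0, both on recovered reads, and each replicate or library left out. Standard errors and intervals are those of limma. Intervals of read ratios are exact binomial intervals at 95%, and they and the floor of 3 reads cover counting error only. The members and the gene lists were chosen with earlier results of these data known. Named genes were the members, Prox1, up to 4 called genes of each related list by smallest adjusted p, and the 5 protein-coding genes outside the lists closest to Cdh1. Outside this rule, Mst1, Marveld2, Marveld3 and Lad1 were named after their values were seen. So were the uncalled Ctnnb1, Ctnna1, Prss8, Llgl2, Grhl1, Zeb1 and Snai1, factors listed at 0 and single cell type markers. Coordinates, exonic lengths and overlaps come from GENCODE M21 on GRCm38, and promoter sequences from RefSeq on GRCm38.p6, which held 3 of the 10 members. Proteins were not analysed here.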

Additional observations from a re-analysis of the deposited data

How the results depend on the processing

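Calls depended on the replicate block and on the tool. Without the replicate block limma called 0 genes (1783 at an unadjusted p under 0.05), 0 of the 10 genes followed here (3 at an unadjusted p under 0.05) and 0 related genes (25), against 1798, 4 and 28 with it. DESeq2 with the block called 483 genes and 13 related genes, and without the block 160 genes, 2 of the 10 genes (Epcam and Spint1) and 11 related genes. The cause was not tested. Over the 10 settings that keep all libraries, Cdh1 was called in 8, Epcam and Spint1 in 9 each, and Esrp2 and St14 in 0. Cdh1, Epcam and Spint1 were lower in all 10. In limma the block and the filters leave the log2 change of a gene as it was, so those settings bear on calls and not on direction. Ehf was lower in all 9 that tested it and was called in 3 of the 7 that gave an adjusted p. Esrp2 changed sign with quantile normalization, to 0.0048. The median of the tested genes was -0.94 with a pseudocount of 10, -1.12 with a mean of at least 50, which leaves out Ehf, and -1.20 with quantile normalization. Leaving out 1 library without the block, with the lone library assumed to vary like the other group, gave 0 to 118 genes and 0 to 5 related genes called, and 0 of the 10 genes in all 4 fits (3 to 4 at an unadjusted p under 0.05). Only the fit without the Prox1 KO library of replicate 2 called any gene. The median then ranged from -1.54 to -0.65, and Esrp2 from -0.35 to 0.28. Values from 1 pair have no test, and the same settings changed no other direction. Depth limits Grhl2, Esrp1, Elf3, Ovol1 and Ehf, which rest on 0 to 25 reads per library.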
